A study of Homo sapiens with 8 samples.

Results

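The vitamin D and retinoid pathway genes described here are 10 genes chosen by symbol from the 26364 genes of the count table, and all 10 were in it. VDR and DHRS3 were picked for their responses in these libraries, so their values are given as a description with no test. VDR encodes the receptor for calcitriol, the active form of vitamin D, and CYP24A1 encodes the hydroxylase that inactivates calcitriol. RXRA encodes the retinoid X receptor that partners both VDR and the retinoic acid receptors, and RARA, RARB and RARG encode those retinoic acid receptors. RDH10, DHRS3, CRABP2 and CYP26A1 encode proteins that make, withdraw, carry or degrade retinoids. Of the 10, 8 passed the expression filter and were among the 14201 genes tested, while CYP24A1 and CYP26A1 did not pass it.

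RNA was sequenced from Ishikawa cells, an established human endometrial adenocarcinoma line, in 4 groups of 2 libraries. The groups received dexamethasone (100 nM, a glucocorticoid receptor agonist) together with estradiol (10 nM, an estrogen receptor agonist), dexamethasone alone, estradiol alone, or DMSO vehicle. All groups grew in phenol red-free medium with charcoal-treated serum, a treatment that strips small lipophilic hormones, and the labels name no vitamin D or retinoid ligand. The sample labels give 8 hours of treatment and the shared treatment protocol 1 hour, and the sources used here do not settle which applies. Nothing in the labels ties the 2 libraries of each group to separate cultures, so every p-value rests on a spread between libraries that may be only technical.

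Vitamin D and retinoic acid act through nuclear receptors that bind DNA as pairs with RXR. A receptor without ligand can hold a target gene down, and the ligand turns it into an activator. CYP24A1 is a strongly induced target of VDR, and CYP26A1 and RARB are classical targets of the retinoic acid receptors, so their mRNAs are commonly used as readouts of each ligand. Retinol is oxidised to retinaldehyde by RDH10 and further to retinoic acid by the ALDH1A enzymes, while DHRS3 reduces retinaldehyde back to retinol. In the endometrium both receptor families are known from work on epithelial differentiation and decidualization.

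The retinoic acid response element of a classical target consists of direct repeats of a receptor half-site. RefSeq windows from 250 bases before to 50 bases after an annotated start (build GRCh38.p14) were given for 7 of the 10 genes, 16 windows in all, and not for VDR, CYP24A1 and RDH10. The repeat core, GTTCA repeated in the same direction after 6 other bases and searched on both strands like all motifs here, was found in 1 of 4 RARB windows and in 1 of 2 CYP26A1 windows, and in 0.057% of all 35116 windows of this length. As both genes are classical targets, a match in their windows was likely beforehand and is a description only. These windows are shown because both genes serve as retinoic acid readouts, with the repeat core in capitals, beginning 52 bases before the start in RARB (chr3:25428013-25428312, plus strand) and 90 bases before it in CYP26A1 (chr10:93073643-93073942, plus strand).
RARB: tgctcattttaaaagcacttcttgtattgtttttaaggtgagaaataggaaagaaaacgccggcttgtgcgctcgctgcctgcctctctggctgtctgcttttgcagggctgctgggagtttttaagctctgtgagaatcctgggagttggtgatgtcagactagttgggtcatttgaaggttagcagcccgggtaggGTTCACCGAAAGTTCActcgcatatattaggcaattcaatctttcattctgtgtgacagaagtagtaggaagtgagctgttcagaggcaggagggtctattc
CYP26A1: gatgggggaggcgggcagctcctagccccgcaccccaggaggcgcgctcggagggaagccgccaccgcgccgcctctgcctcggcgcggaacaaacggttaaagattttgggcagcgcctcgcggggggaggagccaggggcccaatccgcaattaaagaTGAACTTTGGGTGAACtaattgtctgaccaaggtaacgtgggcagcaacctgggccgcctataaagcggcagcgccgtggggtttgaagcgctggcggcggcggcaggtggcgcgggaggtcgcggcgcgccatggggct

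The half-site AGGTCA, which VDR, the retinoid receptors and the estrogen receptor can all bind and which lies within longer repeats of these receptors, was found in 1 of 3 windows of DHRS3, 1 of 3 of RARA and 1 of 4 of RARB. It was present in 13.8% of all windows. The DHRS3 window (chr1:12596564-12596863, minus strand) and the RARA window (chr17:40308930-40309229, plus strand) are shown because both genes were higher with estradiol. RARB was not called with estradiol and its window is not shown. Whether the half-site has a part in the estradiol response was not tested. The half-site, as TGACCT in DHRS3 and as AGGTCA in RARA, is in capitals, 171 and 230 bases before the start.
DHRS3: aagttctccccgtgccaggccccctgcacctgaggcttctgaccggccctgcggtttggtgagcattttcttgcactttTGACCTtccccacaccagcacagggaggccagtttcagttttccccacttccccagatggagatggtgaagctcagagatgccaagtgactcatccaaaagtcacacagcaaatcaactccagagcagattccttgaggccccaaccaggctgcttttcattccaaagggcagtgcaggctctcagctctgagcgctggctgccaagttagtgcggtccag
RARA: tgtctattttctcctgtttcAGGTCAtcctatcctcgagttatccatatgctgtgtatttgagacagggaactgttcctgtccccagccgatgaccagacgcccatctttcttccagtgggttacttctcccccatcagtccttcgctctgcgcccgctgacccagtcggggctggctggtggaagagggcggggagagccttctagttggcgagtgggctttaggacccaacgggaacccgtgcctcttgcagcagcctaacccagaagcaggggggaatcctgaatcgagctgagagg
The estrogen response element, GGTCA and TGACC with 3 bases between them (0.057% of all windows), the glucocorticoid response element, AGAACA and TGTTCT with 3 bases between them (0.00285%), and direct repeats of AGGTCA with 3 or 5 bases between them (0.0057% each) were found in 0 of the 16 windows. The glucocorticoid half-site AGAACA, present in 14.8% of all windows, was found in an RXRA window and in a RARB window. These are matches of letters only, and the counts do not show which start the cells used.

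Library totals were between 17846211 and 22487333 counts, so 3 counts correspond to 0.132 to 0.169 CPM, the count scaled to library size, in a library. All 9 epithelial markers were detected, at summed levels of 3984 to 4249 CPM in the combination, 4546 to 5040 CPM in dexamethasone, 3540 to 3771 CPM in estradiol and 3496 to 4131 CPM in DMSO libraries. Leukocyte markers reached at most 1.77 CPM, with the T cell marker CD3E at 0 counts in all libraries. The highest endothelial value, 7.77 CPM, was that of ESAM, and the highest stromal value, 185 CPM, that of COL1A1. The other endothelial markers were below ESAM and the other stromal markers far below COL1A1 in every library. Of these, PECAM1, CDH5, TEK, DCN, LUM and PDGFRB did not pass the expression filter. The endothelial marker KDR passed it and was higher in the libraries with dexamethasone. It was at 1.11 and 1.08 CPM with both hormones and 1.30 and 1.46 CPM with dexamethasone. With estradiol it was at 0.169 and 0.177 CPM, and with DMSO at 0.262 and 0.0972 CPM. VWF was at 1.75 to 2.86 CPM and ESAM at 5.74 to 7.77 CPM over all libraries. In bulk RNA a smaller share of cells with a transcript and less transcript per cell cannot be told apart. Dexamethasone replicate 1 was above replicate 2 at the estrogen-induced genes PGR (8.91 and 2.47 CPM) and GREB1 (17.7 and 6.85 CPM). DMSO replicate 1 was also above replicate 2, though less so, at PGR (4.09 and 2.53 CPM) and GREB1 (8.03 and 6.71 CPM). Dexamethasone replicate 2 had 1.42% of its counts in the ribosomal RNA gene RNA45S5, against 2.79% to 4.03% in the other libraries. It also had the fewest genes with a count, 16969 against 17219 to 17507. Whether this bears on the difference between the dexamethasone libraries was not tested.

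VDR was more abundant in every hormone-treated library than in every vehicle library. It was at 44.4 and 46.8 CPM with both hormones, 43.8 and 44.4 CPM with dexamethasone, 29.1 and 30.2 CPM with estradiol, and 19.7 and 20.4 CPM with DMSO. The libraries fell into a high level with dexamethasone, whether or not estradiol was present, an intermediate level with estradiol alone and a low level with vehicle. The closest neighbours in this order were the combination and dexamethasone, whose groups were separated only by the gap between 44.419 and 44.393 CPM. Of the 50-base stretches of VDR transcripts, 0.0513% are shared with VPS36, and AC121338.1 overlaps VDR on the opposite strand.

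As fold changes, VDR was 2.28-fold the vehicle level with both hormones, 2.20-fold with dexamethasone and 1.48-fold with estradiol, on log2 values of 1.19 ± 0.10, 1.14 ± 0.10 and 0.56 ± 0.10 (± SE of the fit). Among the 14201 genes its log2 fold change ranked at 197, 182 and 658 from the highest in these comparisons, which share the DMSO libraries. Adding dexamethasone to estradiol went with a log2 difference of 0.62 ± 0.09, against 1.14 ± 0.10 without estradiol. Adding estradiol to dexamethasone went with 0.05 ± 0.09, against 0.56 ± 0.10 without dexamethasone. The mean with both hormones was 45.6 ± 1.67 CPM (SD, n = 2), where the product of the single fold changes would give 65.2 CPM, a log2 gap of -0.52 ± 0.13. By absolute size this gap ranked at 1621 of 14201 genes, and as VDR was picked for its responses it is a description only. Leaving out each library in turn left this gap between -0.55 and -0.48.

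DHRS3, the retinaldehyde reductase, was high in the 4 libraries with estradiol and low in the others. It was at 37.9 and 32.8 CPM with both hormones, 8.72 and 1.85 CPM with dexamethasone, 31.8 and 40.4 CPM with estradiol, and 3.10 and 1.41 CPM with DMSO. The groups with estradiol overlapped each other and lay above every library without it, and the dexamethasone and DMSO groups overlapped.

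DHRS3 was 15.8-fold the vehicle level with both hormones (log2 3.98 ± 0.49) and 16.2-fold with estradiol (4.01 ± 0.49), ranking at 8 and 12 of 14201 genes from the highest. The DMSO libraries, at 3.10 and 1.41 CPM, moved these log2 values to 4.64 and 4.67 without DMSO replicate 1 and to 3.51 and 3.55 without DMSO replicate 2. Dexamethasone added to estradiol went with a log2 difference of -0.03 ± 0.37, between -0.19 and 0.16 with each library left out. For dexamethasone alone the log2 fold change was 1.28 ± 0.56 with all libraries and -0.27 without dexamethasone replicate 1, the library with 8.72 CPM of DHRS3 and more of the estrogen target PGR. It was 1.97 without dexamethasone replicate 2, 1.94 without DMSO replicate 1 and 0.81 without DMSO replicate 2. The part of that library in the dexamethasone value of DHRS3 was not tested beyond leaving it out. Estradiol added to dexamethasone went with a log2 difference of 2.70 ± 0.44, which was 4.25 without dexamethasone replicate 1 and 2.01 without replicate 2. The mean with both hormones, 35.3 ± 3.56 CPM (SD, n = 2), compares with 84.6 CPM for the product of the single fold changes, a log2 gap of -1.31 ± 0.68. This gap was 0.23 without dexamethasone replicate 1, -2.00 without dexamethasone replicate 2, -1.97 without DMSO replicate 1 and -0.85 without DMSO replicate 2.

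**Figure D1:**
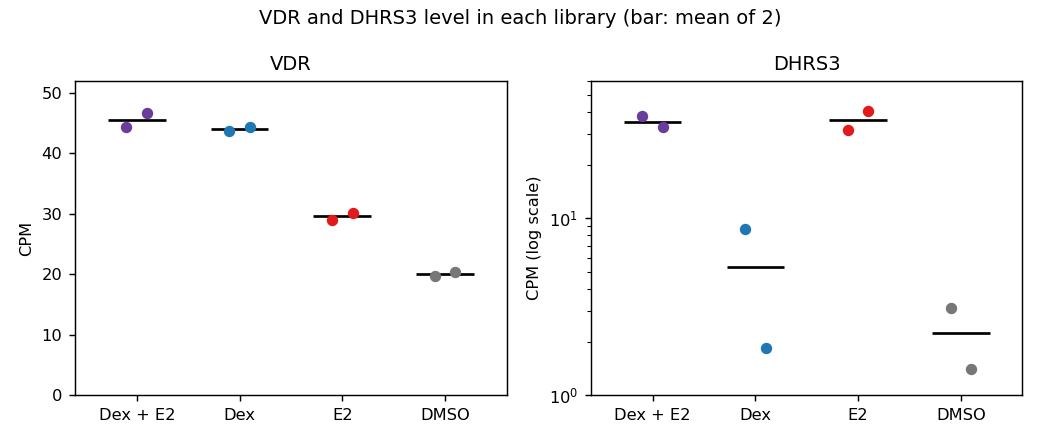
VDR (left, linear axis) and DHRS3 (right, log axis) in CPM for each of the 8 libraries, with points for libraries and a bar for the mean of the 2 libraries of a group (Dex, dexamethasone; E2, estradiol). VDR is highest in the 4 libraries with dexamethasone, between 43.8 and 46.8 CPM, and DHRS3 is highest in the 4 libraries with estradiol, between 31.8 and 40.4 CPM.

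The 3 genes with the profile most like VDR over the 8 libraries, among 11973 genes, were RASSF2, GADD45G and FA2H (Pearson's r of log2 CPM 0.988, 0.983 and 0.982). RASSF2, which encodes a Ras association domain protein, was at 10.9 and 9.65 CPM with both hormones, 9.97 and 9.48 CPM with dexamethasone, 6.02 and 5.65 CPM with estradiol, and 3.94 and 3.89 CPM with DMSO. This is the same order of groups as VDR, with the combination and dexamethasone libraries overlapping. The 3 genes most like DHRS3 were THBS1, which encodes the matrix protein thrombospondin 1, the alkaline phosphatase gene ALPPL2 and the phosphodiesterase gene GDPD5 (r of 0.996, 0.995 and 0.994). THBS1 was at 766 and 817 CPM with both hormones, 356 and 112 CPM with dexamethasone, 845 and 819 CPM with estradiol, and 162 and 89.9 CPM with DMSO. Like DHRS3 it was higher in replicate 1 than in replicate 2 of both dexamethasone and DMSO. The 8 points of each r fall into the 4 treatment groups, so the coefficients describe shared group levels. For DHRS3 they also hold the shared difference between the replicates of dexamethasone and of DMSO.

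**Figure D2:**
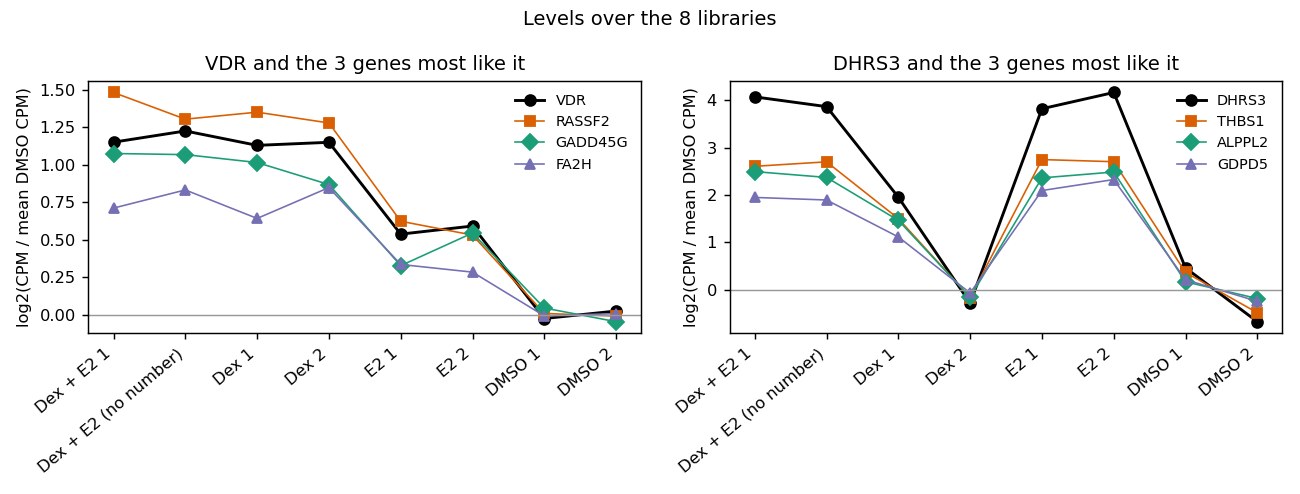
Levels of VDR (left) and DHRS3 (right), each with the 3 genes of most similar profile, as log2 of the CPM over the mean DMSO CPM of the same gene in each of the 8 libraries (lines join libraries for legibility only). The VDR group falls in steps between dexamethasone, estradiol and DMSO libraries. The DHRS3 group stands high in the 4 estradiol-treated libraries. It is higher in replicate 1 than in replicate 2 of dexamethasone and, less so, of DMSO.

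RARA, the retinoic acid receptor alpha gene, rose with estradiol. It was at 35.4 and 33.8 CPM with both hormones, 24.6 and 22.9 CPM with dexamethasone, 33.4 and 41.2 CPM with estradiol, and 24.1 and 24.0 CPM with DMSO. All 4 libraries with estradiol lay above all 4 without it, while the 2 groups within each set overlapped.

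With estradiol alone RARA had a log2 fold change of 0.64 ± 0.12 against DMSO (edgeR's quasi-likelihood test, Benjamini-Hochberg adjusted p = 0.0219). With both hormones it was 0.52 ± 0.12 against DMSO (edgeR, adjusted p = 0.0479) and 0.54 ± 0.12 against dexamethasone (adjusted p = 0.038). Dexamethasone alone gave -0.02, with a 95% interval of -0.28 to 0.25, and dexamethasone added to estradiol gave -0.11, with an interval of -0.37 to 0.14. The estradiol call was lost without estradiol replicate 2 (edgeR, adjusted p = 0.245), the library with 41.2 CPM, and without DMSO replicate 1 (0.0591) or 2 (0.103), and ranged from 0.00221 to 0.245 over 13 alternatives. The combination call against DMSO was lost with another scaling (RLE size factors, adjusted p = 0.0502) and without any of the combination, dexamethasone or DMSO libraries in turn (up to 0.371, and 0.0144 to 0.371 over 12 alternatives). The call against dexamethasone was lost without either combination or either dexamethasone library (up to 0.296, and 0.00817 to 0.296 over 12 alternatives). Reads of RARA and its antisense gene RARA-AS1 may not be separated, because the strand setting of the counting is not given in the sources used here.

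RARG, the retinoic acid receptor gamma gene, stood lower with both hormones than with dexamethasone alone. It was at 42.5 and 41.9 CPM with both hormones, 59.1 and 58.1 CPM with dexamethasone, 39.7 and 44.6 CPM with estradiol, and 51.9 and 53.3 CPM with DMSO. In each library with estradiol it was lower than in each library without it. It fell by 0.47 ± 0.10 on the log2 scale with both hormones against dexamethasone (edgeR, adjusted p = 0.0296), a call lost without either combination or either dexamethasone library (up to 0.259, and 0.00896 to 0.259 over 12 alternatives).

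Against DMSO, RARG was not called with both hormones (log2 fold change -0.32, 95% interval -0.53 to -0.10, edgeR adjusted p = 0.171) or with estradiol (-0.32, -0.53 to -0.10, adjusted p = 0.175). Dexamethasone alone gave 0.15 ± 0.10. The profile of RARG over the libraries ran against that of RARA (Pearson's r of log2 CPM -0.85 over 8 libraries that fall into 4 groups). This was not particular to RARA, as r was -0.85 with RDH10 and -0.82 with DHRS3. With VDR it was -0.07, and with CRABP2, RXRA and RARB it was 0.80, 0.61 and 0.55.

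RARB, which carries the repeat core shown above, was scarce, with 19 and 11 counts with both hormones, 26 and 23 with dexamethasone, 20 and 17 with estradiol, and 27 and 16 with DMSO. These are 0.494 to 1.42 CPM over all libraries. The DMSO group overlapped each of the others, and the 2 combination libraries lay below both dexamethasone libraries. RARB was called in 0 of the 6 comparisons by edgeR and by DESeq2, with an unadjusted p under 0.05 by edgeR in 1. Its log2 differences had wide errors, for example -0.92 ± 0.41 with both hormones against dexamethasone. Exons of RARB overlap those of TOP2B on the opposite strand, so its few counts may include reads of that gene.

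RXRA, the shared partner receptor gene, was not called in these comparisons. It was at 77.2 and 81.9 CPM with both hormones, 89.7 and 87.4 CPM with dexamethasone, 64.6 and 67.8 CPM with estradiol, and 69.1 and 75.7 CPM with DMSO. Both groups with dexamethasone lay above both groups without it in every library. The log2 differences were 0.29 ± 0.09 for dexamethasone against DMSO (edgeR, adjusted p = 0.284) and 0.26 ± 0.09 for dexamethasone added to estradiol (adjusted p = 0.622), neither of which passed the threshold.

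**Figure D3:**
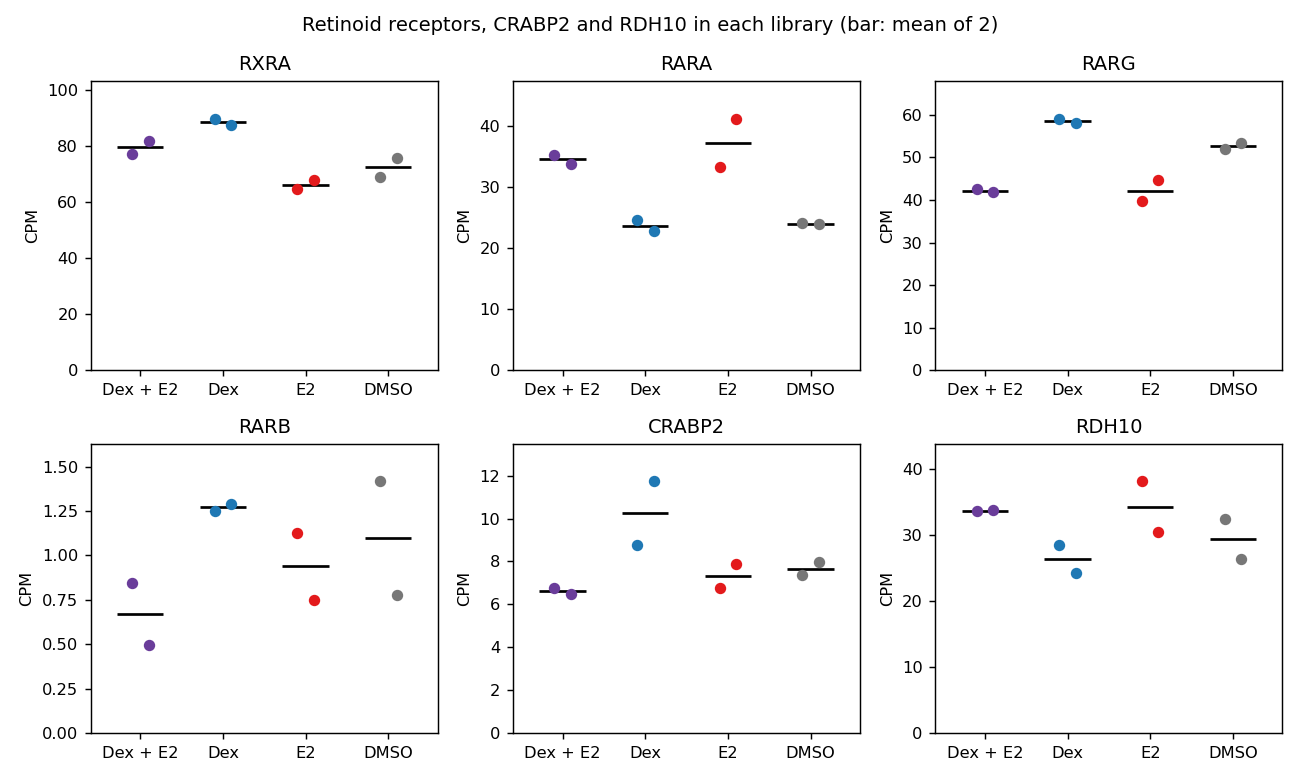
CPM in each of the 8 libraries (points) and the mean of 2 (bars) for RXRA, RARA, RARG, RARB, the retinoic acid carrier gene CRABP2 and the retinol dehydrogenase gene RDH10, on linear axes that start at 0. RARA is higher and RARG lower in the 4 libraries with estradiol than in the 4 without it, RXRA is higher in the 4 libraries with dexamethasone, and RARB stays at or below 1.42 CPM.

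Among the genes of retinoid handling, CRABP2 encodes the protein that carries retinoic acid to the receptors in the nucleus. It was at 6.74 and 6.46 CPM with both hormones, 8.76 and 11.7 CPM with dexamethasone, 6.76 and 7.86 CPM with estradiol, and 7.35 and 7.97 CPM with DMSO. Both dexamethasone libraries lay above all others. The difference of -0.63 ± 0.17 on the log2 scale between both hormones and dexamethasone had an edgeR adjusted p of 0.0926. It passed without the expression filter (adjusted p = 0.0399) and without dexamethasone replicate 1 (0.0401), and ranged from 0.0399 to 0.526 over 12 alternatives.

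RDH10, which encodes the retinol dehydrogenase that DHRS3 works against, was called in 0 of the 6 comparisons by edgeR and by DESeq2, with an unadjusted p under 0.05 by edgeR in 1. It was at 33.6 and 33.8 CPM with both hormones, 28.6 and 24.3 CPM with dexamethasone, 38.1 and 30.5 CPM with estradiol, and 32.4 and 26.4 CPM with DMSO. The estradiol group overlapped the combination and DMSO groups. Its log2 fold change with estradiol was 0.22, with a 95% interval of -0.09 to 0.53, beside 4.01 ± 0.49 for DHRS3. About 1.05% of the 50-base stretches of its transcripts are shared with other genes, and RDH10-AS1 overlaps it on the opposite strand.

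The degrading enzymes were at or near 0. CYP24A1 had 0 counts in all 8 libraries, which allows up to 0.132 to 0.169 CPM per library (3 counts, covering counting error only). CYP26A1 had 0 and 1 counts with both hormones, 3 and 0 with dexamethasone, 0 and 0 with estradiol, and 1 and 1 with DMSO. No difference of either gene was detectable at this depth, and no fold change is given. Of the 50-base stretches of CYP26A1 transcripts, 23.3% are shared with an overlapping annotated transcript on the same strand.

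Leaving out VDR and DHRS3, 6 members were tested, and the calls among them were those of RARA and RARG. All members were chosen with earlier results of these data known, so the shares of members below describe them and test nothing. With both hormones against DMSO 1 of 6 was called (RARA), where 2.19% of all tested genes were, and 2 of 6 had an unadjusted p under 0.05, against 10.8% of all genes. With dexamethasone 0 of 6 were called by edgeR and by DESeq2, against 0.965% of all genes by edgeR, and 2 of 6 had an unadjusted p under 0.05, against 9.84%. With estradiol 1 of 6 was called (RARA), against 1.8% of all genes, and 2 of 6 had an unadjusted p under 0.05, against 11.4%.

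For dexamethasone added to estradiol 0 of 6 were called by edgeR and by DESeq2, against 0.275% of all genes by edgeR, with 1 at an unadjusted p under 0.05, against 6.37%. For estradiol added to dexamethasone 2 of 6 were called, RARA higher and RARG lower, against 2.67% of all genes, and 5 of 6 had an unadjusted p under 0.05, against 16.7%. The interaction, the change with dexamethasone in estradiol-treated cells less the change in vehicle-treated cells, was called for 0 of 6 by edgeR and by DESeq2, against 0.0211% of all genes by edgeR. It had an unadjusted p under 0.05 in 1 of 6 (CRABP2, -0.56 ± 0.25), against 5.16% of all genes.

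The libraries of both groups did not overlap for 5 of the 6 with both hormones against DMSO (39.1% of all genes), 3 with dexamethasone (36.2%), 3 with estradiol (36.2%), 2 for dexamethasone added to estradiol (37.7%) and 6 for estradiol added to dexamethasone (49.8%). In that last comparison RARA and RDH10 were the higher ones.

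**Figure D4:**
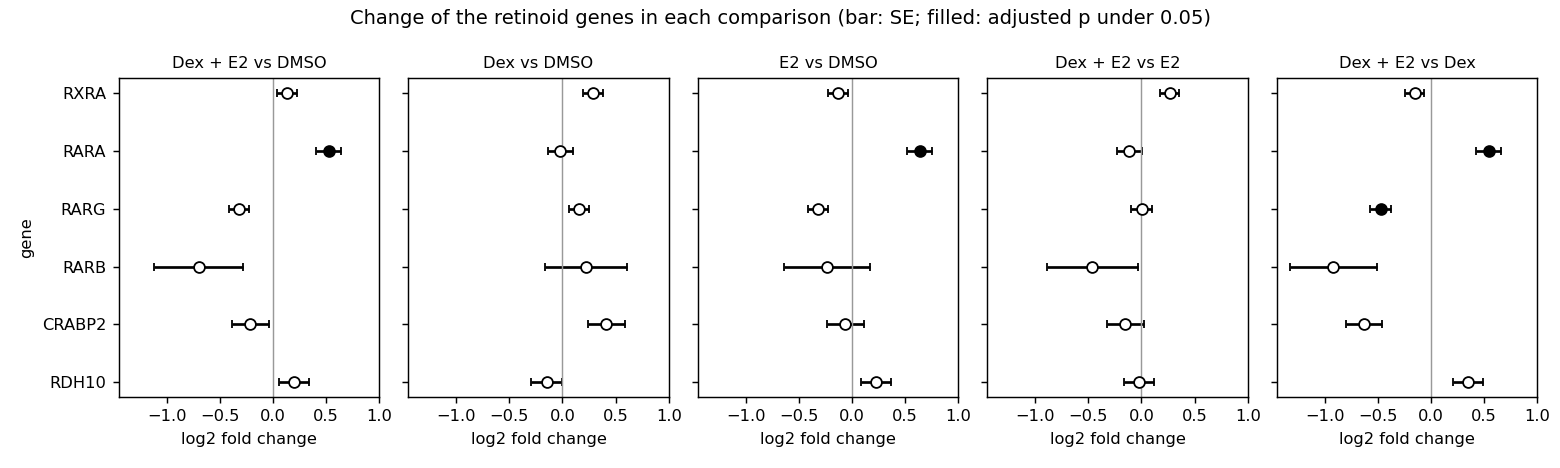
Log2 fold changes (points) with their standard errors (bars) of the 6 tested genes other than VDR and DHRS3, in 5 comparisons, with filled points where the Benjamini-Hochberg adjusted p over all 14201 genes was under 0.05. RARA is filled in the 3 comparisons of estradiol-treated with other cells, and RARG is filled at -0.47 for both hormones against dexamethasone.

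The wider pathway was followed with 5 lists of 100 genes beside the members, of which 99 symbols were in the table and 59 were tested. Many of the target genes are known to answer to other signals as well. The lists were chosen with earlier results of these data known, so the shares below describe them and test nothing. Of the 59, 5 were called with both hormones (8.47%, against 2.19% of all tested genes), 2 with dexamethasone (3.39%, against 0.965%) and 5 with estradiol (8.47%, against 1.8%). For dexamethasone added to estradiol 2 were called (3.39%, against 0.275%), and for estradiol added to dexamethasone 7 (11.9%, against 2.67%). For the interaction 0 were called by edgeR and by DESeq2 (0.0211% of all genes by edgeR), with 10 at an unadjusted p under 0.05 (5.16% of all genes). Median log2 fold changes of the 59 were 0.03, 0.09, -0.03, 0.03, -0.15 and -0.08 in this order of comparisons, where those of all genes lay between -0.0079 and 0.0041. All genes called belonged to the 2 target gene lists.

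The genes that make or take up vitamin D (5 of 9 tested), the other retinoid receptors and binding proteins (7 of 11) and the other enzymes of retinoid metabolism (14 of 28 symbols) had 0 calls by edgeR in each of the 6 comparisons. At an unadjusted p under 0.05 these lists had at most 1, 2 and 2 genes in a comparison, and DESeq2 called 1 binding protein or receptor gene with estradiol and 0 otherwise. The retinaldehyde dehydrogenases that make retinoic acid were low, ALDH1A1 at 0.438 to 0.976 CPM, ALDH1A2 at 0.442 to 1.06 CPM and ALDH1A3 at 2.48 to 4.10 CPM over the libraries. CYP27B1, which makes calcitriol, was at 0.530 to 1.30 CPM. CYP26B1, a relative of CYP26A1, was at 2.53 to 3.38 CPM.

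Of 15 tested vitamin D target genes, CDKN1A, which encodes the cyclin-dependent kinase inhibitor p21, rose in the groups with dexamethasone. It averaged 63.3 ± 2.07 CPM with both hormones, 50.6 ± 0.373 CPM with dexamethasone, 36.8 ± 0.0808 CPM with estradiol and 34.9 ± 2.65 CPM with DMSO (SD, n = 2). Its log2 fold change was 0.86 ± 0.10 with both hormones (edgeR, adjusted p = 0.000827), a call kept under all 12 alternatives. With dexamethasone it was 0.53 ± 0.10 (adjusted p = 0.0283), a call lost in 8 of 13 alternatives (up to 0.202), and 0.78 ± 0.10 for dexamethasone added to estradiol (adjusted p = 0.00476), lost in 3 of 12 (up to 0.0883).

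IGFBP3, which encodes a binding protein of insulin-like growth factors, averaged 252 ± 3.64 CPM with both hormones and 550 ± 147 CPM with dexamethasone. It fell by 1.13 ± 0.15 on the log2 scale between them (edgeR, adjusted p = 0.00403, kept under all 12 alternatives). Against 423 ± 38.3 CPM with DMSO it fell by 0.75 with both hormones (adjusted p = 0.026, lost in 5 of 12 alternatives, up to 0.191). TXNIP, which encodes an inhibitor of thioredoxin, fell by 0.48 with estradiol (edgeR, adjusted p = 0.039, lost in 6 of 13 alternatives, up to 0.25). The calcium channel gene TRPV6, at 7.48 ± 0.282 CPM with both hormones and 12.5 ± 0.139 CPM with dexamethasone, fell by 0.74 between them (edgeR, adjusted p = 0.0414, lost in 4 of 12 alternatives, up to 0.26). Of the 15 vitamin D targets, 1 rose and 1 fell with both hormones (2.19% of all tested genes called), 1 rose with dexamethasone (0.965%), 1 fell with estradiol (1.8%), 1 rose for dexamethasone added to estradiol (0.275%) and 2 fell for estradiol added to dexamethasone (2.67%). With estradiol alone IGFBP3 averaged 275 ± 0.641 CPM. TRPV6 averaged 6.84 ± 1.63 CPM with estradiol and 9.13 ± 0.364 CPM with DMSO. Neither was called with estradiol against DMSO (-0.62 ± 0.15 and -0.41 ± 0.17, edgeR, adjusted p = 0.078 and 0.377). TXNIP averaged 62.2 ± 5.60 CPM with estradiol and 86.9 ± 5.34 CPM with DMSO. It averaged 79.2 ± 0.771 CPM with both hormones and 82.5 ± 3.53 CPM with dexamethasone.

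Of 18 tested retinoic acid target genes, TGM2, which encodes a transglutaminase, and NRIP1, which encodes a nuclear receptor corepressor and is also an estrogen target, rose with estradiol. NRIP1 averaged 115 ± 14.0 CPM with both hormones, 54.1 ± 16.7 CPM with dexamethasone, 103 ± 13.8 CPM with estradiol and 45.1 ± 4.33 CPM with DMSO. Its log2 fold change was 1.35 ± 0.19 with both hormones (edgeR, adjusted p = 0.0024, kept under all 12 alternatives) and 1.19 ± 0.19 with estradiol (adjusted p = 0.0082, lost without either estradiol library, up to 0.114). Like DHRS3 it was higher in dexamethasone replicate 1 (65.9 CPM) than in replicate 2 (42.4 CPM).

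TGM2 rose by 0.63 ± 0.11 with both hormones (edgeR, adjusted p = 0.0136, lost in 4 of 12 alternatives, up to 0.142) and by 0.72 ± 0.11 with estradiol (adjusted p = 0.00931, lost without either estradiol library, up to 0.127). It averaged 96.1 ± 5.84 CPM with both hormones, 59.1 ± 1.84 CPM with dexamethasone, 102 ± 2.65 CPM with estradiol and 62.1 ± 9.75 CPM with DMSO.

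BTG2, an antiproliferative gene, moved in opposite directions with the single hormones. It was at 51.3 ± 1.47 CPM with both hormones, 72.2 ± 2.75 CPM with dexamethasone, 29.3 ± 0.909 CPM with estradiol and 41.3 ± 2.30 CPM with DMSO. It rose by 0.81 ± 0.10 with dexamethasone (edgeR, adjusted p = 0.00156, kept under all 13 alternatives) and fell by 0.50 ± 0.10 with estradiol (adjusted p = 0.0298, lost in 7 of 13 alternatives, up to 0.221). With both hormones it was not called (0.31 ± 0.10, adjusted p = 0.176). RET, a receptor tyrosine kinase gene with 29 and 27 counts with both hormones and 4 and 5 with dexamethasone, rose by 2.39 ± 0.41 between them (edgeR, adjusted p = 0.0136, lost without any of these 4 libraries, up to 0.101). For estradiol added to dexamethasone TGM2 (0.70) and NRIP1 (1.08) also rose and BTG2 (-0.49) fell, with TGM2 and NRIP1 losing the call in 2 and BTG2 in 3 of 12 alternatives, among them the one without dexamethasone replicate 2. Of the 18 retinoic acid targets, 3 rose and 2 fell there (2.67% of all tested genes called). The same counts were 2 and 1 with both hormones (2.19%), 1 and 0 with dexamethasone (0.965%), 2 and 2 with estradiol (1.8%), and 1 (BTG2) and 0 for dexamethasone added to estradiol (0.275%). RET had 17 and 30 counts with estradiol alone and 8 and 9 with DMSO. It was not called between these (1.41 ± 0.37, edgeR, adjusted p = 0.104).

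**Figure D5:**
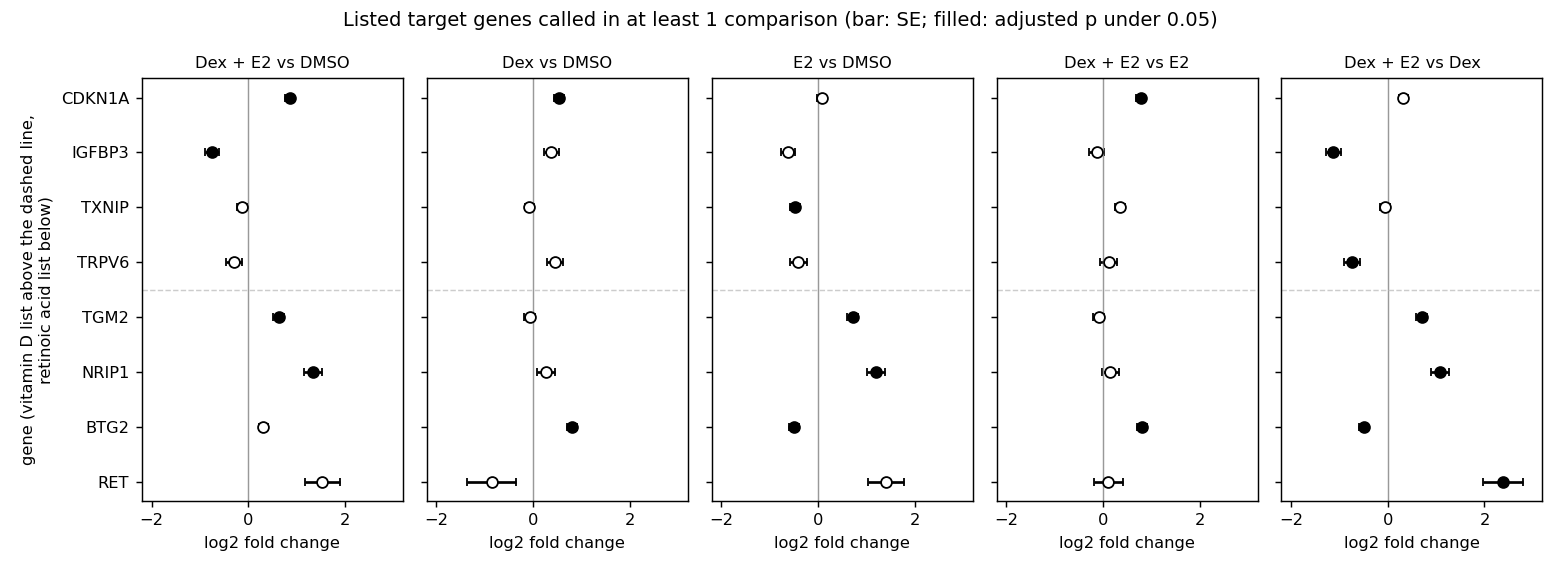
Log2 fold changes (points) with their standard errors (bars) of 8 listed target genes called in at least 1 comparison, vitamin D targets above the dashed line and retinoic acid targets below it, with filled points where the adjusted p was under 0.05. CDKN1A is filled in the 3 comparisons at 0.53 to 0.86 that set dexamethasone-treated against other cells, and NRIP1 and TGM2 are filled in the 3 that set estradiol-treated against other cells.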

How the data were processed

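Per the labels' protocols, total RNA of 8 Ishikawa libraries was sequenced from stranded mRNA kits. The authors deposited raw counts per gene, whole numbers, and a table in which each signal value is the raw count divided by 1 factor per library (0.876 to 1.11, within 5.11e-15). That table served only for that check. The submitters' processing notes name HISAT2 2.0.4, Subread, featureCounts 1.5.1, DESeq2 1.14.1 and hg19. Neither annotation nor strand setting is given in the sources used here. No gene coordinates are therefore printed from the count table. The shared 50-base stretches and overlapping exons of the members come from a GENCODE annotation of build GRCh38, not from that of the counts.

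Columns were assigned by name. Both combination columns carry the number 1, so the column spelled unlike the title of replicate 1 was kept in its group without a number. Counts were filtered with filterByExpr (14201 of 26364 genes kept), scaled by TMM and fitted with edgeR 4.0.16 (quasi-likelihood, limma 3.58.1, R 4.3.3), all 8 libraries in 1 fit. Tests covered 6 contrasts, with Benjamini-Hochberg adjustment over all tested genes and a threshold of 0.05. CPM use TMM-scaled library sizes, and log2 CPM for correlations a prior count of 2. Standard errors come from the fold change and test statistic, and intervals are 95%. Alternatives were DESeq2 1.42.0, RLE scaling, no filter, only the libraries of a contrast, each library left out and a replicate block. The libraries of a group differed beyond sampling noise (chi-square per degree of freedom 9.61 to 24.8).

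Members and gene lists were chosen with earlier results of these data known. The text names all members, each list gene called in a comparison (1 is counted but not reported here by name), and for VDR and DHRS3 the 3 genes with the highest correlation of log2 CPM among tested genes with a mean above 1. The levels of ALDH1A1, ALDH1A2, ALDH1A3, CYP27B1 and CYP26B1 and the genes next to RXRB were added after values were seen. On simulated counts with changes of 1.5, 2 and 4 fold, the estradiol contrast recovered 60%, 90% and 100% (18 false calls among 193, over 13907 genes) and the interaction 22%, 84% and 97% (10 among 160, over 13909). At 1.5 fold recovery ran from 46% (dexamethasone added to estradiol) to 62% (estradiol added to dexamethasone) over the comparisons other than the interaction. Changes were placed only in genes above 2 CPM in DMSO, so these rates do not cover scarcer genes such as RARB.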

Additional observations from a re-analysis of the deposited data

How the results depend on the processing

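Of the values of the 6 tested members other than VDR and DHRS3 under alternatives, 398 kept their direction and side of the threshold, 18 lost a call, 2 gained one and 20 changed sign, none of them called. For VDR and DHRS3 no call is made. Without dexamethasone replicate 1 DHRS3 changed sign for dexamethasone against DMSO (-0.27) and for the interaction (0.23). For dexamethasone added to estradiol it was 0.16 without estradiol replicate 2 and 0.067 without the unnumbered combination library.

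DESeq2 called 68 genes for dexamethasone added to estradiol and 13 for the interaction, against 39 and 3 by edgeR. Without the expression filter there were 253 calls with dexamethasone (137 with it), 442 with estradiol (256), 132 for dexamethasone added to estradiol, 658 for estradiol added to dexamethasone (379) and 32 for the interaction, 1 of which was a pathway list gene. With only the libraries of the contrast there were 63 calls with dexamethasone, 1 of them a pathway list gene, and 151 for dexamethasone added to estradiol, where RARG was at -0.0057. With RLE scaling 0 members were called with both hormones against DMSO.

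Leaving out each library in turn gave 157 to 325 calls with both hormones, 78 to 127 with dexamethasone, 58 to 298 with estradiol, 10 to 68 for dexamethasone added to estradiol, 89 to 488 for estradiol added to dexamethasone and 1 to 10 for the interaction. Members called were 0 to 1 with both hormones, 0 to 1 with estradiol and 0 to 2 for estradiol added to dexamethasone. Pathway list genes called were 2 to 5 with both hormones, 1 to 2 with dexamethasone, 0 to 6 with estradiol, 0 to 2 for dexamethasone added to estradiol and 1 to 7 for estradiol added to dexamethasone. Log2 differences that changed sign ranged with dexamethasone from -0.071 to 0.033 (RARA), -0.15 to 0.70 (RARB) and -0.29 to 0.0061 (RDH10), and with estradiol from -0.61 to 0.25 (RARB) and -0.19 to 0.036 (CRABP2). For dexamethasone added to estradiol they ranged from -0.25 to 0.059 (RARA), -0.079 to 0.098 (RARG) and -0.17 to 0.15 (RDH10). For the interaction they ranged from -0.10 to 0.039 (RXRA), from -0.24 to 0.077 (RARA), from -0.028 to 0.30 (RDH10). The cause of these changes was not tested.

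With the replicate number as a block, over the 6 numbered libraries of the single hormones and DMSO, 239 genes were called with dexamethasone and 441 with estradiol. Deviations of same-numbered libraries correlated at 0.0493 (dexamethasone and estradiol), 0.243 (dexamethasone and DMSO) and 0.153 (estradiol and DMSO), and with 2 numbers these are not taken as pairs. No paired analysis was possible for the comparisons with the combination because one of its columns has no number of its own. At this depth CYP24A1 and CYP26A1 did not pass the expression filter, and RARB had 11 to 27 counts in a library.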

Other observations

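RXRB, the gene of another retinoid X receptor, is listed at 0 counts in all 8 libraries. Of the 10 protein-coding genes next to it in RefSeq's order on chromosome 6 (GRCh38.p14) that are in the table, 7 are also listed at 0, among them RING1, SLC39A7 and VPS52. Over the table, 6336 of 26364 genes are at 0 in all libraries, and so are 185 of the 896 protein-coding genes of chromosome 6 that it holds. A 0 here therefore says only that no reads were assigned to RXRB. RXRG, the third gene of the family, had at most 0.0449 CPM in a library.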
